A study of Mus musculus with 4 samples.

Results

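The NKG2 and CD94 lectin receptor genes are 8 neighbouring protein-coding genes on mouse chromosome 6: Klre1, Klrd1, Klrk1, Klrc3, Klrc2, Klrc1, Klri1 and Klri2, in the order of their positions. They were chosen by gene name and make up 8 of 21728 protein-coding genes, counted without the Y chromosome. Accessible chromatin was mapped by DNase-seq, in which the nuclease DNase I cuts open DNA, in 4 libraries of primary natural killer (NK) cells. The cells came from female virgin mice of the F1 hybrid strain B6CASTF1/J at 2 months of age, with no treatment named. The libraries are biological replicates 1 to 4 of 1 group, so no condition was compared and no test was made. They have a biosample each but share 1 donor identifier, and the labels used here give neither the tissue nor the sort, so the SD over libraries may be partly technical spread.

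NK cells read the surface of other cells through paired lectin-like receptors. CD94, the product of Klrd1, pairs with NKG2A (Klrc1) into an inhibitory receptor and with NKG2C (Klrc2) or NKG2E (Klrc3) into activating receptors, and these pairs bind the non-classical class I molecule Qa-1, encoded by H2-T23. NKG2D (Klrk1) acts as a homodimer that binds stress-induced ligands and signals through the adaptors encoded by Hcst and Tyrobp, while KLRE1 pairs with KLRI1 or KLRI2.

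The gene bodies and 25 kb on either side merged into 1 window, chr6:129552905-129765484 on mm10, of 212.58 kb. Peaks of the 4 libraries that touched or overlapped formed 35 regions there, and 16 of these were recurrent, meaning a peak in at least 3 of 4 libraries. Genome-wide, 46.8% of merged regions were recurrent, close to the share in the window. Of the 16 recurrent regions, 9 had a peak in all 4 libraries. They lay outside genes in 9 cases, in introns in 2, over coding exons in 4 and over a non-coding exon or UTR in 1. The window held 7.53 recurrent regions per 100 kb, against a median of 2.93 and an upper quartile of 6.08 over the loci of all protein-coding genes. No other protein-coding gene starts in the window.

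**Figure D1:**
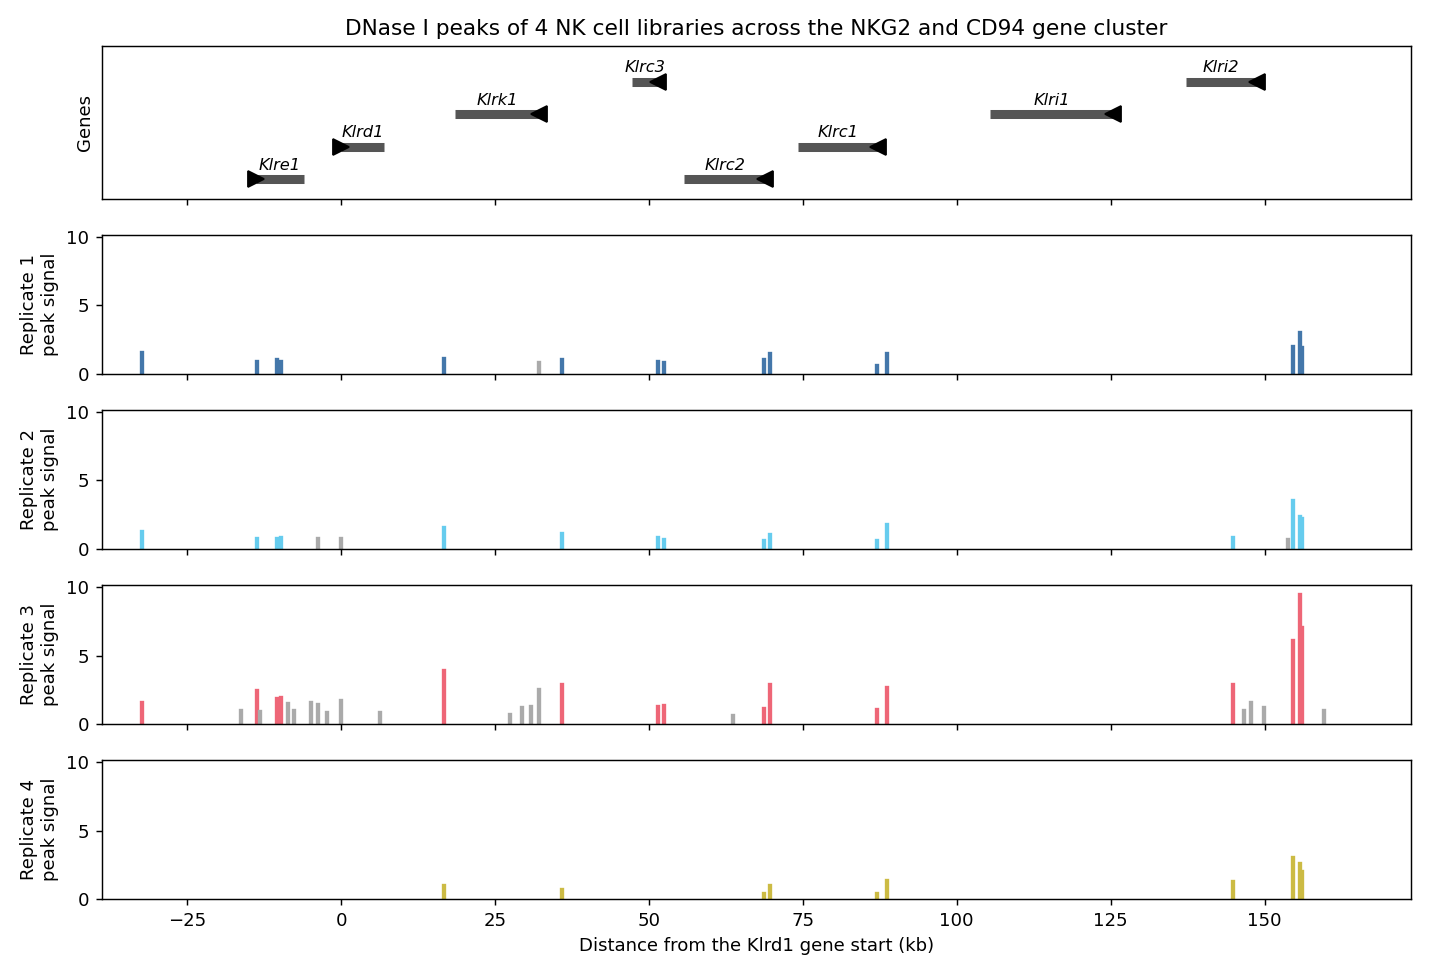
Peak signal in each of the 4 libraries (lower panels, authors' signal value per peak) against distance from the Klrd1 gene start in kb, with gene bodies as bars and arrowheads at the starts (top). Coloured lines are the 16 recurrent regions and grey lines the others, which are mostly in replicate 3; the group upstream of Klri2 on the right is the highest in every library.

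Replicate 3 stood apart from the others. It had 35 peaks in the window, against 16, 20 and 11 in replicates 1, 2 and 4. Of the 16 regions found in 1 library, 15 came from replicate 3. Over the whole genome its longer peak list held 69144 peaks, against 36247 to 47464 in the others. Regions with a peak in all 4 libraries had a genome-wide median signal of 1.74, 1.98, 2.85 and 1.39 in replicates 1 to 4. Those of the window had medians at 0.818, 0.777, 1.0 and 0.703 times these. Replicate 3 was thus also higher outside the window. The 10 NK cell marker genes had a summed start signal of 61.2 in replicate 3 and 22.7 to 26.5 in the others. Of the 10, 7 had a recurrent start region, against 50.3% of all protein-coding genes. For 6 B cell markers, 4 of which had one, the sum was 1.73 in replicate 3 and 3.56 to 7.42 in the others. For 9 T cell markers it was 0.505 to 1.65, with Cd3d, Cd3e, Cd4, Cd8a, Cd8b1 and Cd28 at 0 and Cd3g the 1 gene with a recurrent start region. Of the other lists, 3 of 7 myeloid, 1 of 6 ILC2 and ILC3, 1 of 4 erythroid and 2 of 4 stromal markers had one. The part of these differences in the member values was not tested.

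The strongest accessible sites of the cluster lay upstream of Klri2, the gene of an activating partner of KLRE1. Of these 3 intergenic regions, the highest, chr6:129747361-129747580, had a peak signal of 2.98, 2.37, 9.39 and 2.58 in replicates 1 to 4. The region at chr6:129746201-129746560 had 1.94, 3.51, 6.04 and 3.04, and the one at chr6:129747741-129747980 had 1.90, 2.22, 7.03 and 1.95. Together they span 1780 bp, from 5717 to 7496 bp upstream of the annotated Klri2 start. They were the 3 highest regions of the window in each of the 4 libraries. Every base of each of the 3 had a false discovery rate (FDR) below 0.001 in each library. Their share of the summed signal of the window was 33.7%, 35.7%, 31.5% and 55.8% in replicates 1 to 4.

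Their means were 4.33 ± 3.38, 3.63 ± 1.73 and 3.28 ± 2.51 (SD, n = 4), with replicate 3 the highest for each. Without replicate 3 they were 2.64, 2.83 and 2.02, so the order of the first and second depends on that library. Over the 4 libraries neither neighbouring pair differed beyond its SD, which includes the difference in level between libraries. Within libraries, the first was above the third in all 4, and the other pairs changed order. Among all recurrent regions, the means stood at percentiles 82.0, 78.4 and 76.3, which places them above the middle of the genome's open sites but not among its most open. The next protein-coding gene beyond them, Gm156, starts 36290 bp away, and the Klri2 start is the nearest to all 3.

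The sequences of these 3 regions are shown because they carry the highest signal of the cluster. They are from the GRCm38.p6 reference of RefSeq on the minus strand, the strand of Klri2, and this reference is C57BL/6J, so CAST alleles of the hybrid are not shown. In the first pair, capitals mark bases inside a footprint, a short protected stretch called by the authors, in at least 3 of 4 libraries. In the last, capitals mark RUNX, ETS, T-box and AP-1 letters, as in the other stretches with motifs in capitals.
Klri2 upstream, chr6:129747361-129747580: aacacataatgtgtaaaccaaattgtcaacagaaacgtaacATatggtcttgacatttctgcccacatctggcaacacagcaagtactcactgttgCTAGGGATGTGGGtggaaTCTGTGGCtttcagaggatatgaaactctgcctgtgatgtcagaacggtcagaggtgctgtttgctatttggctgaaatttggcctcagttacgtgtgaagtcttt
Klri2 upstream, chr6:129746231-129746530, a stretch of the region: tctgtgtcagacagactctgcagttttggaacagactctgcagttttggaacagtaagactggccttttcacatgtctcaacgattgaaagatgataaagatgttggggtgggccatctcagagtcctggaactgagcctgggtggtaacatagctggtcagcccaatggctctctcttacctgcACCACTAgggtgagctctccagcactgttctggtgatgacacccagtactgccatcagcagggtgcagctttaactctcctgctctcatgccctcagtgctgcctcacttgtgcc
Klri2 upstream, chr6:129747741-129747980: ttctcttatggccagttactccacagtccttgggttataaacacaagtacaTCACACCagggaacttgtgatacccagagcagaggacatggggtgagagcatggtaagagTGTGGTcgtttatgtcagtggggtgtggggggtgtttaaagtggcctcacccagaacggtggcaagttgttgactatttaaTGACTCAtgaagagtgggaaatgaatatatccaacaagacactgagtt
In the longest capital run of the first, 13 bases, 10 bases were in a footprint in all 4 libraries, and in the 7-base run of the second, 3 bases were. Both regions held none of the 11 motifs searched. The third held TCACACC (T-box), TGTGGT (RUNX) and TGACTCA (AP-1), in that order. It also held KLF letters (GGGTGTG), in lower case, which a footprint touched in 2 libraries, and no footprint base there was shared by 3 libraries.

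Klri2 itself had no recurrent region at its single annotated start. Signal within 1 kb of it was 0, 0, 1.51 and 0, that is, a peak in replicate 3 alone. A recurrent intronic region, chr6:129736461-129736700, lay 3784 to 4023 bp downstream of the start and had 0, 0.795, 2.83 and 1.25, with a mean of 1.22 ± 1.19 and 0.682 without replicate 3. Klri1, which encodes the other KLRE1 partner, had no peak within 1 kb of its start in any library and no base there with an FDR below 0.05. It was the only member to which no recurrent region was assigned by nearest transcript start. Between the Klrc1 upstream region and the Klri2 intron, 55.74 kb holding the whole of Klri1 had 0 peaks in all 4 libraries, and 78, 81, 147 and 68 bases with an FDR below 0.05.

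A start region, by contrast, was recurrent at 4 of the 8 members: Klrc1, Klrc2, Klrc3 and Klre1. Over all protein-coding genes 50.3% had a recurrent region within 1 kb of the annotated gene start, so the share among the members was close to that of all genes at this setting. With the shorter peak list it was 1 of 8 against 46.8%, with a peak in all 4 libraries 2 of 8 against 47.6%, and with a peak in at least 1 library 7 of 8 against 56.6%. Checking all annotated transcript starts gave the same 4 genes, against 54.7% of all genes. Mean start signals were ranked against those of all genes with a recurrent start region. The 4 members with one were low among these, from percentile 5.26 at Klrc1 to 18.4 at Klrc2. Klri2, Klrd1 and Klrk1, without one, stood at 0.962, 4.47 and 8.19. Libraries without a peak enter these means as 0, which lowers them.

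**Figure D2:**
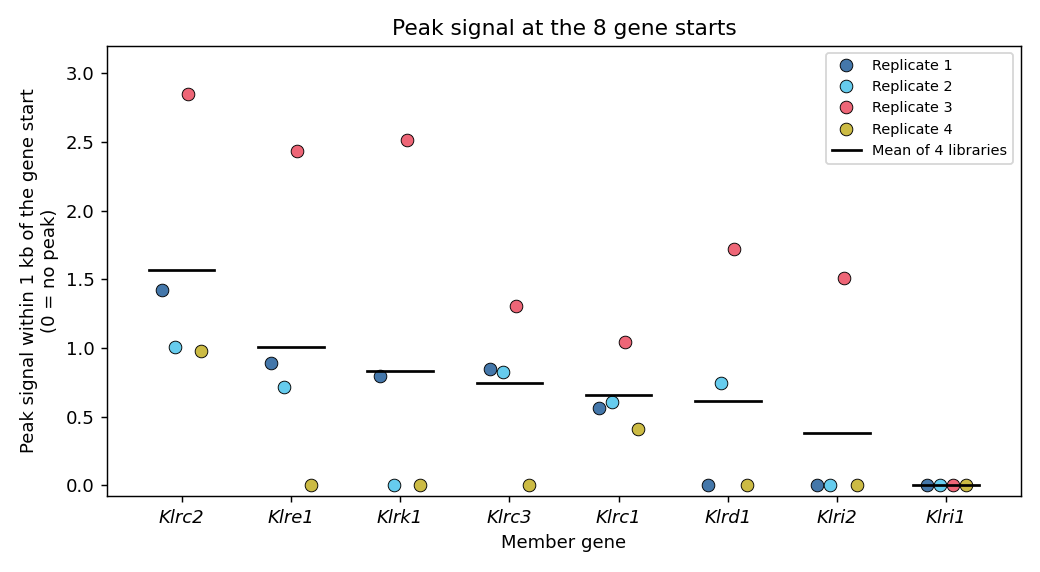
Highest peak signal within 1 kb of the annotated start (vertical axis, authors' value, 0 where no peak was called) for the 8 members, ordered by mean; points are the 4 libraries and the line their mean. Klrc2 runs from 0.980 to 2.85, Klrc1 is the other gene with a point above 0 in all 4 libraries, and Klri1 is at 0 throughout.

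Among the CD94 partners, Klrc2 had the highest start signal of the 8 members. Its values were 1.42, 1.01, 2.85 and 0.980 in replicates 1 to 4, a mean of 1.56 ± 0.880 (SD, n = 4). This value comes from a region 612 to 891 bp upstream of the annotated start, chr6:129661301-129661580. A second region just inside the gene, chr6:129660281-129660678, covered 4 of the 5 annotated Klrc2 starts and had 1.02, 0.554, 1.13 and 0.375. Its mean of 0.770 was below the start means of Klre1 (1.01) and Klrk1 (0.83). The first place of Klrc2 therefore depends on the 1 kb limit. The upstream region of Klrc1, with a mean of 1.79, lies 1299 bp or more before its start and is not counted.

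Klrc1, the gene of the inhibitory NKG2A chain, had 0.564, 0.604, 1.05 and 0.413 at its start, over chr6:129678541-129679020. This region covered all 3 annotated starts and had the lowest mean of the 16 recurrent regions, 0.657 ± 0.272. Its upstream region, chr6:129680272-129680720, was higher in each library, with 1.48, 1.78, 2.60 and 1.32, and lay 1299 to 1747 bp before the start. The start and upstream values did not overlap.

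Klrc3, the gene of NKG2E, also had a pair of regions, and both lacked a peak in replicate 4. The region over its start, chr6:129643061-129643360, had 0.846, 0.826, 1.25 and 0, and the one 724 to 983 bp upstream, chr6:129644061-129644320, had 0.823, 0.654, 1.30 and 0. Unlike at Klrc1, neither of the pair was higher in all libraries. In each of the 3 NKG2 genes, then, a region over or beside the start was accompanied by an intergenic one whose far edge lay at most 1747 bp upstream.

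**Figure D3:**
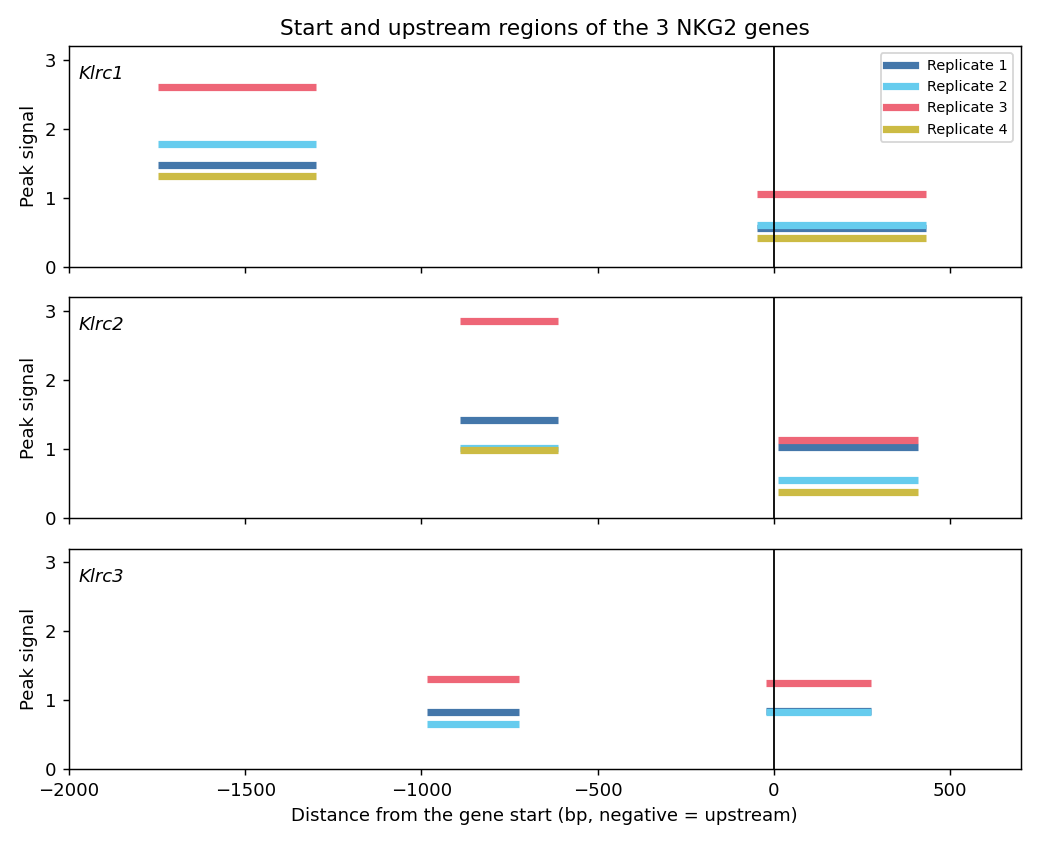
Peak signal (vertical axis) of each region by its position relative to the gene start in bp (horizontal axis, negative is upstream) for Klrc1, Klrc2 and Klrc3; each bar is 1 library and spans the merged region. The upstream bars of Klrc1 and Klrc2 lie above the start bars of the same library, while those of Klrc3 lie near them and have none from replicate 4.

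The upstream regions resemble one another in sequence. Those of Klrc3 and Klrc2 were identical at 252 of 253 aligned bases, and those of Klrc2 and Klrc1 at 174 of 204 (85.3%). The start regions of Klrc3 and Klrc2 were identical at 299 of 300 bases. Of the 32-base words in these 4 regions of Klrc2 and Klrc3, 11.9% to 15.3% occur once in the genome, whereas all those of the Klrc1 pair do. Reads of Klrc2 and Klrc3 could therefore be split or lost between the copies, and their separate values are uncertain.

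All 3 upstream regions hold T-box and RUNX letters that overlap, AGGTGTG and TGTGGT sharing TGTG, as the run AGGTGTGGT. On the minus strand, the strand of these genes, it reads ACCACACCT, in capitals in the stretches below, which are from GRCm38.p6 of RefSeq.
Klrc1, chr6:129680541-129680609: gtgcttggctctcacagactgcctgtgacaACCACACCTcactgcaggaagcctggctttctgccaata
Klrc2, chr6:129661340-129661408: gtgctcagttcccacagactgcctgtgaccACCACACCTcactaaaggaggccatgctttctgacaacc
Klrc3, chr6:129644073-129644141: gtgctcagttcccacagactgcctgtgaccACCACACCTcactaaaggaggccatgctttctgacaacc
The run lies 1598 bp before the start of Klrc1, 681 bp before that of Klrc2 and 766 bp before that of Klrc3. It was chosen after its matches were seen, and 0.580% of 23626 recurrent regions away from gene starts held it in a 290 bp window. The Klrc2 and Klrc3 regions lie within 1 kb of a gene start, so that share is of unlike regions. The 3 matches are not independent of each other, as the regions share their sequence. A footprint touched it in 2 libraries at Klrc2, 1 at Klrc3 and 0 at Klrc1. In the Klrc1 region a footprint in 4 libraries touched the AGGAAG letters (ETS) just downstream, and the other 2 hold no ETS letters. The bases shared by all 4, chr6:129680555-129680559, reach only the edge of these letters, at chr6:129680559-129680564.

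Klrd1, which encodes the CD94 chain shared by these receptors, had no recurrent start region. Its start signal was 0, 0.745, 1.72 and 0, so peaks were found in replicates 2 and 3. The region, chr6:129591601-129591840, covered 3 of the 5 annotated starts, and the other starts had no peak within 1 kb. Bases within 1 kb of the start with an FDR below 0.05 numbered 40, 173, 315 and 0, so weak signal was listed in replicate 1 where no peak was called. Klrk1, the NKG2D gene, had 0.799, 0, 2.52 and 0 in a region over its first starts, chr6:129623841-129624080, and 3 alternative starts inside the gene had a peak in replicate 3 alone. Without replicate 3 the mean start signal fell from 0.616 to 0.248 at Klrd1 and from 0.83 to 0.266 at Klrk1.

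The stretches just before these gene starts are shown because they adjoin the annotated starts of the CD94 and NKG2D genes. Each had a peak in 2 libraries. Both are from GRCm38.p6 of RefSeq, on the strand of the gene, with RUNX, ETS and AP-1 letters in capitals.
Klrd1, plus strand, chr6:129591601-129591781: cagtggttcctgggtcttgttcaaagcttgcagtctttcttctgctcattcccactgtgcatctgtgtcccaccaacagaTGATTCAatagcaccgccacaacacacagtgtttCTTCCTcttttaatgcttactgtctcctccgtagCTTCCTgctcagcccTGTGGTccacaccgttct
Klrk1, minus strand, chr6:129623865-129624080: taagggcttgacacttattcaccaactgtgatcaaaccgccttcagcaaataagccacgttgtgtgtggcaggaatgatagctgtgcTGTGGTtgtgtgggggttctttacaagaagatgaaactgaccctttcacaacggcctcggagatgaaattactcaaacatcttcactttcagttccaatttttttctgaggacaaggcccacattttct
The Klrd1 stretch held TGATTCA (AP-1), CTTCCT (ETS, at 2 places) and TGTGGT (RUNX), and the Klrk1 stretch held TGTGGT and, in lower case, IRF letters (GAAANNGAA) on the other strand. No base of either was in a footprint shared by 3 libraries.

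Open sites near Klrd1 and Klrk1 were instead recurrent away from their starts. An intergenic region between the 3' ends of these converging genes, chr6:129608421-129608740, had 1.12, 1.54, 3.87 and 0.980. It was the fourth strongest of the window, with a mean of 1.88 ± 1.35 (1.21 without replicate 3), at percentile 60.8. It lies 1583 bp beyond the 3' end of Klrk1 and 9646 bp beyond that of Klrd1, and went to Klrd1 only because an internal transcript start of that gene is the nearest start. A region 3640 to 3876 bp upstream of Klrk1, chr6:129627504-129627740, had 0.999, 1.13, 2.84 and 0.673, with a mean of 1.41 ± 0.973 (0.933 without replicate 3). Both had peaks in all 4 libraries.

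The region between the 3' ends is shown, on the plus strand of GRCm38.p6 of RefSeq, because it was the strongest region near these genes, with RUNX letters and with T-box and AP-1 letters that overlap in GGTGTGAATCA.
Klrd1 and Klrk1 intergenic, chr6:129608431-129608730: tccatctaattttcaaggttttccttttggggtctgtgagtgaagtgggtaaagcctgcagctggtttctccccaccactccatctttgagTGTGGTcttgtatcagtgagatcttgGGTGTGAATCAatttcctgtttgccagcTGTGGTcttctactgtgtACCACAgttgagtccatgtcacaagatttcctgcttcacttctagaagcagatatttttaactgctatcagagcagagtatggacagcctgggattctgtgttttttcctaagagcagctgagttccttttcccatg
It held RUNX letters at 3 places and, not marked, E-box letters (CAGCTG) at 3, IRF letters at 1 and KLF letters at 1. The KLF letters run into the T-box capitals and 1 of the E-box places into RUNX capitals. A footprint touched the T-box letters in 2 libraries.

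Klre1, whose product pairs with KLRI1 and KLRI2, had 0.893, 0.715, 2.43 and 0 at its start, in chr6:129577861-129578320. The mean was 1.01 ± 1.02, and 0.536 without replicate 3. This region includes a CA repeat, and 88.8% of its 32-base words occur once in the genome. A pair of regions within the gene, at chr6:129581081-129581515 and chr6:129581977-129582200, had 1.02, 0.765, 1.83 and 0 and 0.905, 0.775, 1.89 and 0. All 4 recurrent regions assigned to Klre1 had peaks in replicates 1, 2 and 3 and none in replicate 4, which had peaks in 10 of the 16 recurrent regions.

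The strongest of the 4 Klre1 regions, chr6:129559381-129559580, lay 18325 bp or more upstream, at the outer edge of the cluster. Its signal was 1.52, 1.26, 1.51 and 0, the only recurrent region of the 16 in which replicate 3 was not the highest library. It is shown on the plus strand of GRCm38.p6 of RefSeq, with bases in a footprint in 3 libraries in capitals.
Klre1 distal, chr6:129559381-129559580: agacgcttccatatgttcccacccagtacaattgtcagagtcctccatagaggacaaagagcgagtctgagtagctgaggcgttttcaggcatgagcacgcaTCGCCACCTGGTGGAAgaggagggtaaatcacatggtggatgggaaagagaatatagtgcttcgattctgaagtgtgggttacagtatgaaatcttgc
The 16-base footprint held the E-box letters CACCTG, and IRF letters lay outside it. The CTCF letters searched matched none of the 16 recurrent regions, against 15.4% of 290 bp windows of recurrent regions away from gene starts. A different and longer CTCF spelling, which is not a looser form of the first, chosen after this footprint was seen, matched here alone among the 16, on the minus strand inside the footprint, and 14.3% of windows held it.

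**Figure D4:**
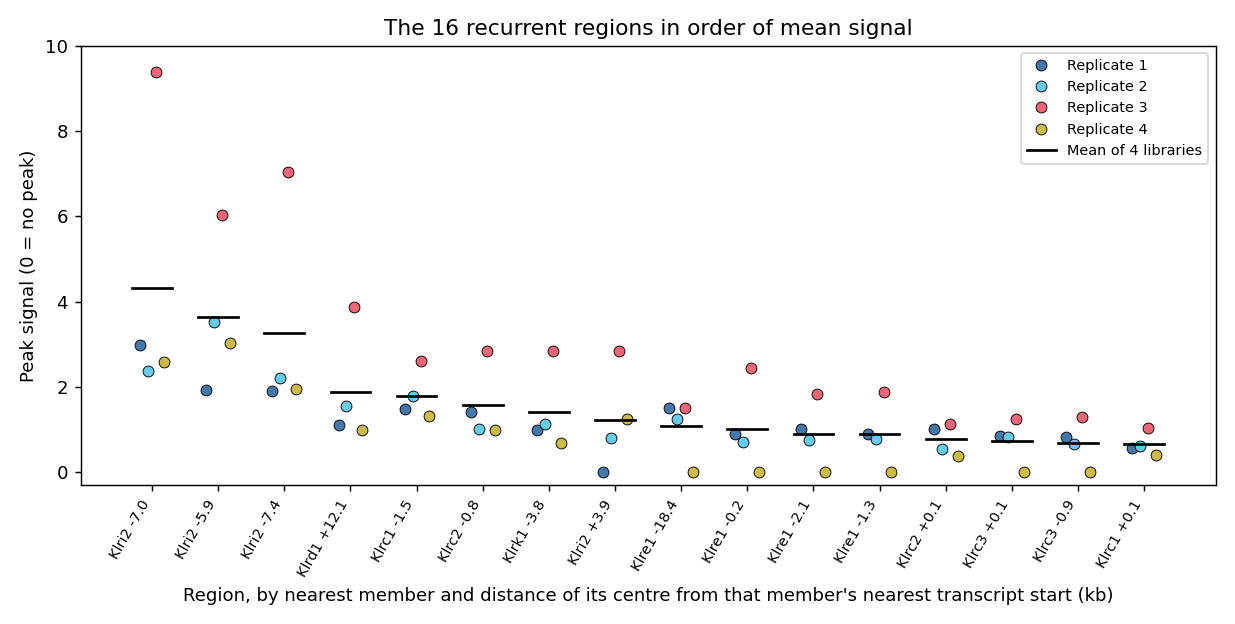
Peak signal (vertical axis, 0 where no peak was called) in the 4 libraries for the 16 recurrent regions, ordered by mean and named by nearest member and the distance in kb of the region's centre from that member's nearest transcript start. The 3 regions upstream of Klri2 lead, and the points of replicate 3 are the highest in all regions but the distal one of Klre1.

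By nearest transcript start, 4 recurrent regions went to Klri2, 4 to Klre1, 2 each to Klrc1, Klrc2 and Klrc3, 1 each to Klrd1 and Klrk1, and 0 to Klri1. Without replicate 1 or replicate 4 the count of Klrd1 was 3, and without replicate 2 or replicate 4 that of Klrk1 was 2. In the order of mean start signal within 1 kb, Klrc2 was followed by Klre1 (1.01), Klrk1 (0.83), Klrc3 (0.744), Klrc1 (0.657), Klrd1 (0.616), Klri2 (0.378) and Klri1 (0). No neighbours in this order differed beyond the SD of the 4 libraries, which includes the difference in level between libraries. Within libraries, Klrc2 was above Klre1 in all 4, and no other neighbouring pair kept a strict order in all 4.

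Bases with an FDR below 0.001, a measure taken without peak calls, numbered 1881, 2709, 7661 and 1827 in the window in replicates 1 to 4. The window was above chromosome 6 as a whole in each library, by 2.35, 3.10, 5.38 and 3.03 times in the share of such bases. The mean was 3519.5 ± 2790.35 bases (SD, n = 4), and 2139 without replicate 3. Within 1 kb of the Klrc2 start, 235, 436, 584 and 238 bases passed, whereas at Klre1, Klrk1, Klrd1 and Klri2 bases passed in replicate 3 alone.

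Of the 16 recurrent regions, 12 held a footprint in at least 3 libraries, against 82.6% of recurrent regions genome-wide. In 290 bp windows, RUNX letters (TGTGGT) were in 9 of the 16, against 31.5% of 23626 recurrent regions away from gene starts. The sets are unlike, as some of the 16, among them those over the Klrc1, Klrc2, Klrc3 and Klre1 starts, lie within 1 kb of a gene start. T-box letters (GGTGTGA or AGGTGTG) were in 6 (12.4% of all), AP-1 letters (TGANTCA) in 5 (11.5%) and ETS letters (AGGAAG or CCGGAAG) in 4 (46.2%). E-box letters were in 6 (40.3%) and IRF letters in 3 (9.21%). GATA, STAT, TCF1 and KLF letters were in 2 each (10.7%, 7.77%, 3.69% and 10.1%). Over the whole regions, RUNX letters were in 10 of 16, or 8 of 14 with the near-identical Klrc2 and Klrc3 regions counted once. Counted once in this way, T-box letters were in 5 of 14, AP-1 in 4 and ETS in 6. At 150 bp, RUNX letters were in 5 of 16 (20.8% of all), T-box in 3 (6.82%) and AP-1 in 1 (6.68%). Letters were searched on both strands, and KLF letters overlap T-box letters in the region between Klrd1 and Klrk1.

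The start signals most like those of Klrc2, by distance of log2 values over the 4 libraries among 10373 genes with peaks in all 4, were at F2rl2 (0.224), Chit1 (0.292) and Cd96 (0.302). Cd96, a receptor of NK and T cells, had 1.28, 1.01, 3.28 and 0.875. These distances rest on 4 libraries whose differences in level are shared by all genes compared and, for Klrc2, on the upstream region within 1 kb of its start.

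The genes of ligands, adaptors and signalling proteins that act with the receptors were read within 1 kb of the annotated gene start alone. Their other transcript starts were not checked. Over all protein-coding genes, 50.3% had a recurrent start region. Both adaptors had recurrent start regions, Hcst with 2.20, 2.15, 2.82 and 1.47 and Tyrobp with 1.32, 1.56, 3.89 and 1.31. All 7 kinase genes listed and all 4 linker genes had one, the highest being Grb2, at 10.05 ± 3.12 (SD, n = 4), and Pik3cb, at 8.42 ± 2.92. Of 3 inhibitory phosphatases, Ptpn11 and Inpp5d had one and Ptpn6, which encodes SHP-1, had no peak at its annotated gene start in any library. A peak at another Ptpn6 transcript start would not be seen here. Among 6 ligand genes in the annotation, H2-T23, which encodes the Qa-1 ligand of the CD94 receptors, had 1.82, 1.97, 2.28 and 1.18, and Ulbp1, an NKG2D ligand, had 0.693, 0.695, 2.16 and 0.788. The other 4 had none in more than 1 library. Of 20 other lectin receptor genes in the annotation, 6 had a recurrent start region, the highest at Cd69 with 3.29 ± 1.60.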

How the data were processed

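DNase-seq was deposited for 4 libraries of mouse NK cells, all in 1 group by the cell type in the labels. The authors' peak lists give a signal value per peak, called per library on mm10 per the deposited readmes; of the signal's scale, the aligner and each caller, nothing is given in the sources used here. All peak signals were whole multiples, within 0.05 of a step, of a step of 0.0118, 0.0101, 0.00831 and 0.00961 in replicates 1 to 4; depth is not stated, so no counting intervals are given and levels across libraries share that limit. The authors' deposited FDR files, treated as a p-value or q-value unit, list bases below 0.05, and their footprints carry a constant 0.01.

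The longer of the 2 peak lists per library was used, on chromosomes 1 to 19 and X. Peaks were merged on overlap or contact. A gene's start signal is that of its highest peak within 1 kb of the annotated start, or 0 if none was called. Genes came from GENCODE M21 and sequences from GRCm38.p6, which matched the deposited coordinates. RefSeq's promoter table held 6 of the 8 members, and printed stretches were read from the genome by coordinates instead. Regions shared by overlapping loci went once to the member with the nearest transcript start.

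Scripts used Python 3.11.15 with numpy 2.4.6, pandas 2.3.3 and matplotlib 3.10.9, and merging, start and motif searches were tested on simulated data. Named were all members, regions at their starts, the strongest region of each, the 5 strongest of the cluster and the 3 genes most like the member with the highest start signal; the other regions described were chosen after their values were seen. The members, the marker and pathway lists and the motifs were chosen with earlier results of these data known. Alternatives were the shorter peak list, other recurrence, distance and FDR settings, equal peak numbers, scaled or summed signal and each library left out. The readmes hold no measurement and were not used for values.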

Additional observations from a re-analysis of the deposited data

Results flagged for a closer look

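Of 25 values with a spread over the 4 libraries, 5 had a library far from the other 3 by Dixon's criterion. Chance meets it in about 1 of 20 groups of continuous values. Uncalled peaks entered as 0 do not follow that rate, and a peak in 1 library alone always meets the criterion. Replicate 3 was the high library in 4 of these. It had a start signal of 1.51 at Klri2, where the others had no peak. It had 9.39 and 7.03 at the Klri2 upstream regions chr6:129747361-129747580 and chr6:129747741-129747980. It also had 7661 bases of the window with an FDR below 0.001, against 1827 to 2709. In the fifth case replicate 4 was low, with no peak and a signal of 0 at the distal Klre1 region, chr6:129559381-129559580, where the others had 1.26 to 1.52. Replicate 3 was the highest library in 24 of the 25 values, and its signal was also the highest genome-wide. With signal scaled to the library median, the strongest region had 4.01 ± 1.79, against 4.33 ± 3.38 unscaled. These values share libraries and regions, so they are not separate observations.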

How the results depend on the processing

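No paired analysis was possible because the 4 libraries form 1 group and no groups were compared. The shorter peak list left 7 recurrent regions in the window, a recurrent start region at 1 member (Klrc2) by either the gene start or any transcript start, 4 members with an assigned region and 5 regions with any motif. With a peak required in all 4 libraries, there were 9 regions, 2 members with a start region (Klrc1 and Klrc2) by either measure, and 7 regions with a motif. With a peak in at least 1 library, there were 35 regions, 7 members with a start region by either measure, 28 regions with a motif, and a footprint in at least 3 libraries in 34.3% of regions. By the gene start, 46.8%, 47.6% and 56.6% of all protein-coding genes had a start region at these settings, in that order. Gene bodies alone held 7 regions. The other summary values stayed within 1.5 times, or within 1 SD for signal and bases. Leaving out 1 library could not move signal or bases past that SD. With the same number of strongest peaks per library, 36247, the members with a start region were Klrc2, Klrc3 and Klre1, against 47.8% of all genes.

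Leaving out each library in turn, with a peak then required in 2 of 3, gave 4 to 6 members with a start region by either measure. Of all protein-coding genes, 50.6% to 51.9% had one by the gene start at these settings. There were 15 to 19 regions, 7 members with an assigned region and 13 to 17 regions with a motif. The strongest region had 2.64 to 4.98, footprints were in 73.3% to 94.4% of regions, and 2139 to 4083.67 bases passed. The genome-wide footprint share was not taken at these settings. Of the single genes and motifs, 33 of 162 values moved past these bounds. The start signals among the 162 could not pass theirs when a library was left out. Depth is not stated in the files, so an absent peak is not evidence of closed chromatin. Which copy the Klrc2 and Klrc3 reads came from cannot be told apart here.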
